A study of Mus musculus with 16 samples.

Results

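The response of the mouse fetal adrenal gland to deletion of Dicer was described at embryonic stage E15.5, the earlier of 2 stages studied. Its differences rest on 8 of the 16 arrays of the series, 4 of knockout (KO) glands and 4 of control glands, taken by their titles. For each of 18193 genes with a probe set of its own, the brightest probe set, by its mean over the 16 arrays, was used. Of these genes, 13642 were bright enough to test and 4551 were not.

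KO embryos carried the Sf1-Cre transgene and 2 floxed Dicer alleles, so that Dicer was deleted where the Sf1 regulatory region drives Cre, which includes the steroid-producing cortex. Control embryos were littermates on the C57BL/6 background without Cre, which the labels call wild type. The matings combined Sf1-Cre/Dicer lox/lox or Sf1-Cre/Dicer +/lox mice with Dicer lox/lox mice, so controls also carried floxed Dicer. Since no control carried Cre, effects of the transgene and of the deletion cannot be told apart. Each array held the RNA of whole glands pooled from the embryos of a genotype in a litter, with 4 litters at each stage. Controls and KO embryos were littermates, so the 8 pools of E15.5 came from 4 litters, but the labels do not say which pools share a litter and the fit does not include it. The KO and control groups at E16.5, from other litters, enter the choice of probe set, the filter and the estimate of each gene's spread. The SEs and adjusted p values at E15.5 therefore depend on them too. Their own differences are kept for a side-by-side view at the end.

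Dicer is the enzyme that cuts hairpin precursors into mature microRNAs, which pair with messenger RNAs through their seed and lower the stability and translation of those messages. Loss of Dicer removes new microRNAs, so direct targets can rise, while other genes change as later consequences. In the fetal adrenal, cortical cells make steroids under the control of the nuclear receptor Sf1 (gene Nr5a1), a capsule surrounds them, and chromaffin cells of neural crest origin fill the centre. In whole glands, fewer cells of a type and less RNA per cell cannot be told apart.

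All values are on the log2 scale of signal, on which 1 unit is a doubling, and differences are KO minus control. Dicer1 signals were 8.49, 8.63, 8.64 and 8.58 in the controls and 8.24, 8.36, 8.0 and 8.34 in KO. The groups did not overlap, and the difference was −0.35 (SE 0.11, limma adjusted p = 0.0638). It passed in the same fit without control replicate 2 of E16.5, whose 3′ to 5′ signal stood apart (adjusted p = 0.0379). The sources used here do not place this probe set inside or outside the deleted exons, so it checks the labels only in part. Nr5a1 ranged from 10.39 to 11.68 in controls and from 10.92 to 12.38 in KO, and the groups overlapped.

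Arrays of the same group at E15.5 correlated at 0.977 to 0.990. The 3′ minus 5′ signal of Actb was 1.3, 0.7, 1.1 and 1.4 in controls and 1.4, 0.8, 0.4 and 0.4 in KO. For Gapdh it was 0.05 to 0.78 in controls and −0.05 to 0.45 in KO, and the ranges overlapped in both genes. The pools differed in the sex of their embryos. Xist, the transcript of the inactive X chromosome, was at 4.85 to 5.17 in controls 1 to 3 and at 12.06 in control 4. In KO it was at 12.24, 5.03, 11.53 and 12.24, so 1 control pool and 3 KO pools had a high signal. The Y-linked gene Eif2s3y was at 3.44 in control 4 and at 8.51 to 9.64 in the other 7 pools. Sex of the pool therefore moves with genotype. Counts with the Xist signal as a covariate, an alternative chosen after seeing the data, are given beside some of the results. A result without such a count is not thereby unaffected.

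KO arrays were also slightly brighter across the board. The mean signal of an array was 6.35 to 6.37 in KO and 6.31 to 6.32 in controls, without overlap (two-sided exact permutation p = 0.0286, the smallest that 4 against 4 arrays allow). The median difference was 0.07 over the genes tested and 0.08 over the 4551 genes too dim to test. Of the genes tested 64.2% were higher in KO, and of the dim genes 64.1%. The cytosolic ribosomal protein genes, among the brightest on the array, had a median of −0.02. A small change upward is therefore not by itself a change of that gene, and a test was added that asks for a change beyond 0.42 (1.34-fold). That is the size which 90 percent of the dim genes did not reach. It lies well above the medians of 0.07 and 0.08, so the test asks for a minimum change in either direction. A gene that misses it is not thereby shown to reflect the offset.

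**Figure D1:**
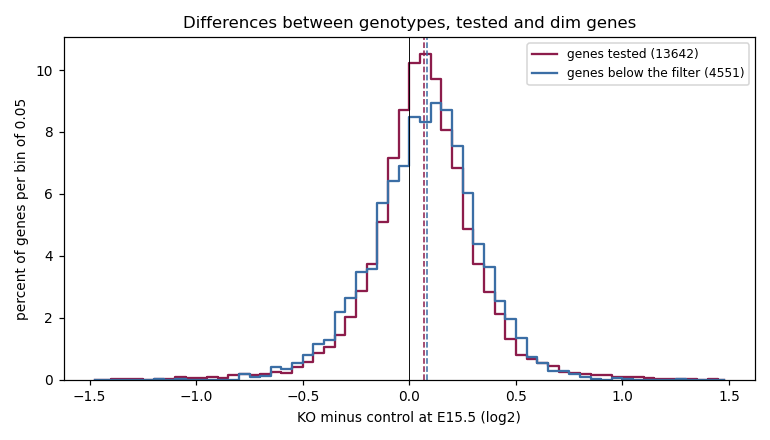
Distribution of KO minus control differences in log2 signal at E15.5 (x axis) for the genes tested and for the genes too dim to test, with each set's median as a dashed line. Both distributions lie slightly to the right of 0, with medians of 0.07 and 0.08.

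KO and control glands differed in many genes by small amounts and in few by large ones. In the fit across all genes, 800 genes passed at an adjusted p under 0.05 (5.86% of those tested), 503 higher in KO (3.69%) and 297 lower (2.18%). With the offset allowed for, by asking for a change beyond 0.42, 86 remained (0.63%), 47 higher (0.345%) and 39 lower (0.286%). Those changes ran from 0.88 to 3.53 upward and from 0.83 to 4.47 downward. In 1977 genes (14.5%), the KO and control values did not overlap, and 769 of the 800 were among them.

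The split between higher and lower genes depended on how arrays were scaled, and the count did so less. With arrays quantile normalized, 373 genes were higher and 350 lower. With arrays centred on their 75th percentile, 276 were higher and 372 lower, and centred on the dim genes, 372 and 453. Centring on the dim genes left 825 genes passing, and 662 of them were among the 800. The share of passing genes that were higher thus went from 62.9% to 51.6%, 42.6% and 45.1%. With Xist as a covariate, 537 genes passed, 303 higher and 234 lower, and 513 of them were among the 800. Of the 163 passing genes examined individually, 38 lost their call with it. Passing members of the gene lists described below went from 160 to 109.

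Most passing genes changed less than 2-fold. The size was under 0.5 in 254 genes (172 higher, 82 lower), 0.5 to 1 in 429 (274 and 155), 1 to 2 in 106 (53 and 53) and above 2 in 11 (4 and 7). The excess of higher genes lay in the small changes, and at 2-fold or more there were 57 higher and 60 lower.

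Passing genes were found at all signal levels. Of the genes tested, split into 5 classes of equal size by mean signal, 12.3% passed in the dimmest class, then 5.83%, 4.44%, 3.56% and 3.23% in the brightest. The filter asked for signal on only 4 arrays, so a dim gene could enter through the genotype in which it was high. The share in the dimmest class is therefore given as a description and not as a result. The same holds for dim members of the lists below. In the brightest class 42 genes were higher and 46 lower, and 6 and 7 with the offset allowed for.

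**Figure D2:**
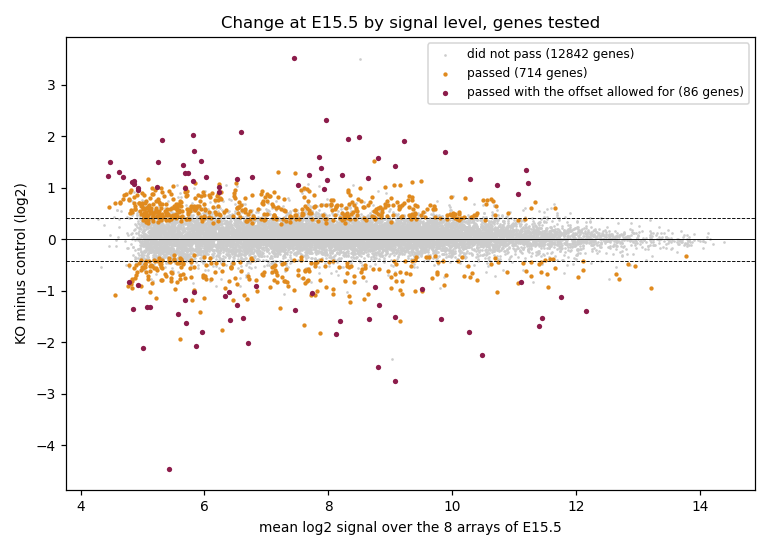
Mean log2 signal over the 8 arrays (x axis) against KO minus control difference in log2 signal (y axis) for the 13642 genes tested, with genes that passed and genes that passed with the offset allowed for marked, and dashed lines at plus and minus 0.42. Most passing genes lie between 1 and −1, and the genes that passed with the offset allowed for have mean signals from 4.44 to 12.17.

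Known targets of let-7 rose in part. let-7 is a family of microRNAs that share a seed and that accumulate as tissues mature. The mature sequences of family members are shown, from RefSeq (GRCm38.p6), to make the shared seed visible, with miR-125b, miR-16 and miR-34a as microRNAs of other seeds whose targets are counted below. The seed, bases 2 to 8, is in capitals. The arrays did not measure microRNAs.
let-7a: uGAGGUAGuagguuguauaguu
let-7c: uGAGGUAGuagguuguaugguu
let-7i: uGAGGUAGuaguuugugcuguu
miR-98: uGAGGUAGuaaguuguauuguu
miR-125b: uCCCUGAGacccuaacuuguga
miR-16: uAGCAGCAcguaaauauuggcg
miR-34a: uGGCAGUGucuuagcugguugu

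Of 31 targets of let-7 tested, 10 rose and 1 fell (35.5%, against 5.86% of all genes), and 5 rose with the offset allowed for. This list, like the others below, was chosen with earlier results of these data known. Its share is therefore a description and not a test. The median change of the list was 0.32, where the median of all genes was 0.07. The mean of the list was 8.59 to 8.71 in the control arrays and 9.14 to 9.30 in the KO arrays. With any of the 8 arrays left out 9 to 11 rose, over the scalings 9 or 10, and with Xist as a covariate 9.

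In the 5 that passed with the offset allowed for, every KO pool lay above every control pool. Nr6a1, a nuclear receptor that represses genes of early embryos, was at 5.79, 5.73, 5.66 and 5.57 in controls and at 9.14, 9.31, 9.23 and 9.17 in KO. Both groups were tight, and the change was 11.5-fold (SE 0.31 log2, adjusted p = 5.30e-06). Trim6, a ubiquitin ligase, was at 4.85, 4.69, 4.79 and 4.89 in controls and at 6.71, 6.75, 6.92 and 6.94 in KO. Igdcc3, an immunoglobulin superfamily membrane protein, was at 6.70 to 6.93 in controls and at 8.94 to 9.41 in KO. KO and control pools did not overlap in any of the 3, though dimmer probe sets of Igdcc3 differed by 0.92 and −0.15. Acvr1c, a type I receptor of the activin family, was at 7.20 to 7.57 in controls and at 9.14 to 9.52 in KO. Arid3b, a DNA-binding protein, was at 5.21, 5.02, 5.16 and 5.34 in controls and at 6.50, 6.70, 7.12 and 6.51 in KO, a rise of 1.52 (adjusted p = 7.22e-06).

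The other 5 rises in the list were smaller. Cdc34, a ubiquitin-conjugating enzyme, was at 8.86, 8.73, 9.0 and 9.09 in controls and at 9.55, 9.87, 10.6 and 10.24 in KO, a rise of 1.14 (adjusted p = 0.00176). Hmga2, a chromatin protein of growing tissues, was at 9.78, 9.77, 10.11 and 9.56 in controls and at 10.66, 10.57, 10.77 and 10.45 in KO, a rise of 0.81 (adjusted p = 0.00113). The groups did not overlap in either gene, but neither passed with the offset allowed for (adjusted p = 0.11 and 0.383). The zinc finger factor Plagl2 rose by 0.74, the RNA-binding protein Igf2bp3 by 0.43 and the GTPase Nras by 0.38. The call of Nras was lost without any of 5 of the 8 arrays and with Xist as a covariate (adjusted p = 0.0636). Ccnd2, a cyclin that is on the lists of several microRNAs, fell by 0.38 (adjusted p = 0.0437), a call lost without any of 7 of the 8 arrays.

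Lists of targets of other microRNAs held few passing genes. No target of miR-34 passed of 22 tested, and none of miR-29 of 23. At an unadjusted p under 0.05 there were 2 in each list. For miR-125, miR-26, miR-17, miR-21 and miR-15/16, between 12 and 18 targets were tested, and 1 or 2 passed in each. Those shares were 5.56% to 13.3%, against 5.86% of all genes. The target of miR-125 that passed was Arid3b, and the target of miR-26 that rose was Hmga2, both also on the let-7 list. Medians of these lists were 0.06 to 0.16. Among 28 genes of the microRNA machinery 1 passed (3.57%), Tarbp2, a partner of Dicer, which rose by 0.69 (adjusted p = 0.00141). It was at 8.64, 8.59, 8.43 and 8.61 in controls and at 9.29, 9.21, 9.30 and 9.21 in KO, without overlap.

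**Figure D3:**
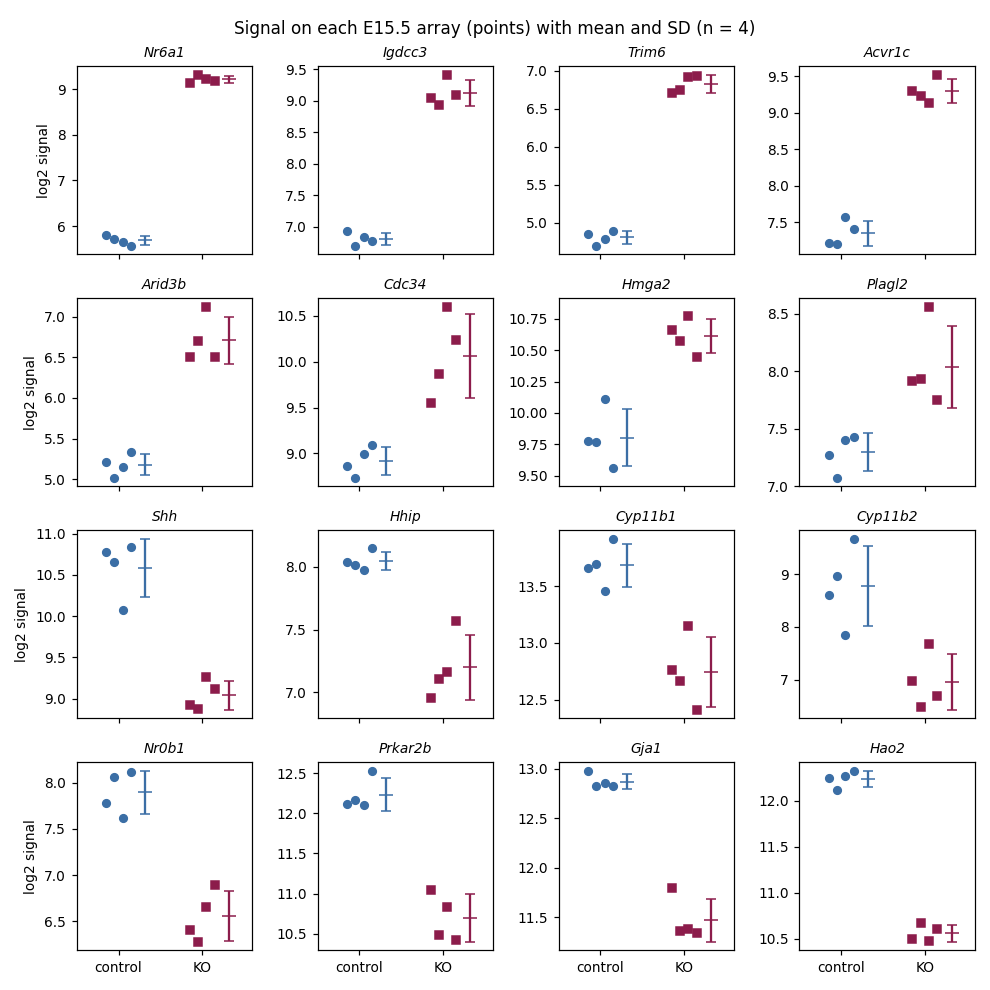
Log2 signal (y axis) of 16 genes in the 4 control and 4 KO pools of E15.5, with replicates 1 to 4 from left to right as points and the mean with its SD as a line and bar. KO pools lie above all control pools in Nr6a1, Igdcc3, Trim6, Acvr1c, Arid3b, Cdc34, Hmga2 and Plagl2 and below all of them in Shh, Hhip, Cyp11b1, Cyp11b2, Nr0b1, Prkar2b, Gja1 and Hao2.

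Beyond the 10 largest rises, the 20 that followed were of 1.20 to 1.6, and 17 of them passed with the offset allowed for. Polr3g, a subunit of RNA polymerase III found in stem cells, was at 7.19, 7.17, 6.97 and 6.90 in controls and at 8.89, 8.46, 8.58 and 8.67 in KO, a rise of 1.6 (SE 0.12, adjusted p = 1.08e-06). The cell adhesion molecule Nrcam rose by 1.58. A dimmer probe set of Nrcam differed by −0.04, and another rose by 1.24. Slc51a, part of a transporter of bile acids and steroids, was at 4.38 to 4.68 in controls and at 5.82 to 6.12 in KO (adjusted p = 1.60e-06). Fst, which encodes the activin-binding protein follistatin, was at 5.89, 6.77, 6.91 and 6.57 in controls and at 7.76, 7.88, 7.60 and 8.14 in KO. Control 1 was the lowest, and the rise of 1.31 did not pass with the offset allowed for (adjusted p = 0.121).

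Other genes in that range were Ttpa, which carries vitamin E (1.26), the lysosomal membrane protein Gpr137b (1.34), Slc16a6 of the monocarboxylate transporter family (1.28), and Chmp4c of the membrane-severing ESCRT complex (1.29). Batf3, a transcription factor of dendritic cells, was at 6.86 to 7.17 in controls and at 8.21 to 8.49 in KO. Lgals3, a galectin abundant in macrophages, was at 6.58 to 7.0 in controls and at 7.72 to 8.74 in KO (offset test adjusted p = 0.0682). Its KO 2 and KO 4 were the higher pools. Cd300a, an inhibitory receptor of leukocytes, rose by 1.21 and the interferon-inducible gene Ifi207 by 1.24.

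Genes that respond to p53 rose in part. Of 22 tested, 5 rose and none fell (22.7%, against 5.86% of all genes), and none passed with the offset allowed for. Cdkn1a, the cell cycle inhibitor p21, was at 7.67, 7.96, 8.08 and 8.18 in controls and at 9.49, 9.65, 9.65 and 9.21 in KO, a rise of 1.53 (SE 0.32, adjusted p = 0.00846). The groups did not overlap, and another probe set of the gene rose by 1.52. Btg2, an inhibitor of proliferation, was at 9.06, 8.87, 9.21 and 8.04 in controls and at 9.46, 9.96, 9.95 and 10.26 in KO, a rise of 1.11 (adjusted p = 0.00462). Control 4 was its lowest pool and KO 4 its highest. The receptor Eda2r rose by 1.00, the cyclin G gene Ccng1 by 0.77 and the RNA-binding protein Zmat3 by 0.59. The 5 passed under each scaling and with Xist as a covariate. None of 24 genes of the Bcl2 family and caspases passed (4 at an unadjusted p under 0.05), nor any of 34 mitosis genes (6), while 1 of 41 genes of DNA replication did.

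Macrophage genes were higher in KO. Of 16 tested, 9 rose and none fell (56.25%, against 5.86% of all genes). With the offset allowed for 1 rose, and the list median was 0.81. The mean of the list was 7.56 to 7.80 in the control arrays and 8.11 to 8.63 in KO. Csf1r, the receptor on which macrophages depend, was at 10.90, 10.48, 11.01 and 10.30 in controls and at 11.93, 11.79, 11.68 and 11.72 in KO, a rise of 1.10 (SE 0.16, adjusted p = 0.000459). Ptprc (CD45), the surface phosphatase of all leukocytes, was at 6.15 to 6.33 in controls and at 6.94 to 7.21 in KO. Aif1 and the signalling adaptors Tyrobp and Fcer1g rose by 1.09, 1.01 and 0.95. In Aif1, KO 1 at 6.46 lay nearest to the highest control at 6.30. From 6 to 10 of the genes rose with an array left out, 7 under each scaling, and 5 with Xist as a covariate.

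Chemokine genes followed. Of 25 chemokines and receptors tested, 8 rose and none fell (32%, against 5.86% of all genes), with a median of 0.41. The array held 47, and a dim one could enter through the genotype in which it was high. That share is therefore a description and not a result. Ccl11, which attracts eosinophils, was at 4.82, 5.17, 5.06 and 4.68 in controls and at 6.41, 6.38, 6.25 and 6.44 in KO (adjusted p = 0.00108), and it alone passed with the offset allowed for. Ccl17 was at 4.26 to 4.53 in controls and at 5.09 to 5.26 in KO. Ccl6 and Ccl9, both made by myeloid cells, rose by 0.84 and 0.79, but each lost its call without any of 5 or more of the arrays. The count fell to 3 without KO 4, to 4 without control 1, 2 or 3, and to 5 without control 4, KO 2 or KO 3. It was 5 with arrays centred on their 75th percentile and 2 with Xist as a covariate.

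Further leukocyte genes rose in lists of other functions. Itgal, the integrin chain of LFA-1, rose by 0.86 (adjusted p = 9.20e-05), the metalloprotease Adam8 by 0.76 and Rgs1, which dampens chemokine receptor signals in lymphocytes, by 0.77. Of 22 integrins tested, 1 rose and 1, Itga2, fell (9.09%, against 5.86% of all genes). The integrin genes Itgam and Itgax were too dim to test. Of 30 Adam and Adamts genes 1 rose (3.33%), and of 16 RGS genes 3 rose (18.75%). Of 13 genes of MHC class II and antigen presentation 2 rose (15.4%). H2-Ab1, the beta chain of an MHC class II molecule, was at 4.70, 4.49, 4.36 and 4.44 in controls and at 5.66, 5.69, 5.54 and 5.76 in KO. That gene did not pass when all its probe sets were averaged (adjusted p = 0.0622). Of 19 interferon response genes 1 passed (5.26%, near the 5.86% of all genes). Of markers of other blood and vessel cells, 1 of 8 erythroid genes and none of 15 endothelial genes passed (0 at an unadjusted p under 0.05).

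Of 31 genes of the ATF4 and unfolded protein responses, 4 rose and none fell (12.9%, against 5.86% of all genes). The list median was 0.11, and that of all genes 0.07. Slc7a11, the cystine transporter, was at 4.88, 5.13, 5.22 and 4.71 in controls and at 6.67, 6.55, 6.78 and 6.77 in KO, a 1.71 rise that passed with the offset allowed for. Dnajb9, a chaperone of the endoplasmic reticulum, was at 10.06 to 10.32 in controls and at 10.90 to 11.06 in KO (adjusted p = 7.98e-05). The transcription factor Atf3 rose by 0.69 and the amino acid transporter Slc7a5 by 0.48, a call lost without any of 5 of the 8 arrays. The heat shock genes Hspa1a and Hspa1b, near-identical copies whose signals cannot be fully separated, fell by 0.94 and 0.84.

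Among 257 solute carriers, 20 rose and 6 fell, 10.1% of the list against 5.86% of all genes, and the list median was 0.08. Those with the largest rises after Slc7a11 were Slc45a3 (1.43), Slc16a6 (1.28), the thiamine transporter Slc19a2 (1.05) and the peptide transporter Slc15a3 (0.93). Slc19a2 was at 8.42 to 8.96 in controls and at 9.42 to 10.01 in KO. The zinc transporter Slc39a4 fell by 0.90. Without control 2, the count that rose was 12, and over the scalings it was 13 or 14.

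Lipid genes went both ways. Of 33 tested, 3 rose and 3 fell (18.2%, against 5.86% of all genes). Acadl, an acyl-CoA dehydrogenase of mitochondrial fatty acid oxidation, was at 11.71, 11.55, 11.41 and 11.45 in controls and at 10.84, 10.65, 10.65 and 10.66 in KO, and its fall of 0.83 passed with the offset allowed for (adjusted p = 0.0346). The desaturase Fads2 fell by 0.63, and the fatty acid sensor Ppara by 0.56, which failed without control 4 or KO 4 (adjusted p = 0.0549 and 0.0518). The peroxisomal enzyme Ehhadh rose by 0.84 and the elongase Elovl6 by 0.74. Elovl6 was at 10.13 to 10.53 in controls and at 10.96 to 11.19 in KO. Plin2, which coats lipid droplets, rose by 0.61. No gene of cholesterol synthesis passed of 18 (1 at an unadjusted p under 0.05).

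Steroid genes fell in part. Of 16 genes of steroid synthesis and its control, 5 fell and none rose (31.25%, against 5.86% of all genes). None fell with the offset allowed for, and the list median was −0.23. Cyp11b1, the enzyme of the last step to corticosterone, was at 13.66, 13.70, 13.46 and 13.92 in controls and at 12.76, 12.66, 13.15 and 12.41 in KO, a fall of 0.94 (SE 0.16, adjusted p = 0.00176). Nr0b1, whose product Dax1 represses Sf1, was at 7.78, 8.07, 7.62 and 8.11 in controls and at 6.40, 6.28, 6.65 and 6.89 in KO. The groups did not overlap in either gene. Cyp11b2, the aldosterone synthase, was at 8.61, 8.97, 7.84 and 9.67 in controls and at 6.98, 6.47, 7.68 and 6.69 in KO. Control 3 was the lowest control and KO 3 the highest KO pool in that gene, and its fall of 1.82 did not pass with the offset allowed for (adjusted p = 0.149).

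Akr1c18, which inactivates progesterone, was at 8.17, 6.55, 8.05 and 5.91 in controls and at 5.73, 5.02, 5.29 and 5.59 in KO. Its controls spread widely, and the call was lost without control 1, control 3 or KO 2 and with Xist as a covariate (adjusted p = 0.0505). Hsd3b1, of the step from pregnenolone to progesterone, fell by 0.32 with an SD of 0.06 in controls and 0.03 in KO, but lost its call without any of 5 of the 8 arrays and with quantile normalization (adjusted p = 0.0718). Cyp21a1 and the ACTH receptor gene Mc2r had differences of −0.82 (adjusted p = 0.0538) and −0.48 (adjusted p = 0.0788), and both passed without KO 3 (adjusted p = 0.0056 and 0.0305) and when the 75th percentile was used for centring. Star, which brings cholesterol into mitochondria, had a difference of 0.19 (adjusted p = 0.575), and Cyp11a1, which makes the cut that opens steroid synthesis, of −0.33 (adjusted p = 0.46). The count that fell was 3 without control 1 or without KO 2, 7 without KO 3, 4 to 7 over the scalings, and 3 with Xist as a covariate.

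In Hedgehog signalling of the subcapsular cortex, the ligand Shh and the decoy receptor Hhip fell. Shh, the ligand that cortical progenitors under the capsule secrete, was at 10.78, 10.65, 10.07 and 10.84 in controls and at 8.92, 8.88, 9.26 and 9.11 in KO, a 2.92-fold fall (SE 0.16 log2, adjusted p = 1.77e-05) that passed with the offset allowed for. Hhip, a decoy receptor and target of the pathway in the receiving cells, was at 8.04, 8.02, 7.97 and 8.15 in controls and at 6.95, 7.11, 7.16 and 7.57 in KO. Its fall of 0.85 (adjusted p = 0.00326) did not pass with the offset allowed for (adjusted p = 0.525). Ptch1, the receptor, fell by 0.36 (adjusted p = 0.0287), a call lost without any of 6 of the 8 arrays and with Xist as a covariate (adjusted p = 0.0514). Gli1, a target transcription factor in the capsule, had a difference of −0.14 (adjusted p = 0.77), and its groups overlapped.

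Over the whole list of 14 subcapsular genes, 4 fell and 1 rose (35.7%, against 5.86% of all genes). The endocytic adaptor Dab2 (−0.64) and the transcription factor Gli3 (0.45, the rise) each lost their call without any of 6 and 4 of the 8 arrays, respectively, and with Xist as a covariate. The count that fell was 2 without control 1, control 3, control 4, KO 1 or KO 2, and 2 with Xist as a covariate. Among genes of Wnt signalling, 2 of 46 rose and 1 fell (6.52%, near the share of all genes). The fall was that of Frzb (−2.76), which passed with the offset allowed for. The rises, Sfrp4 (0.53) and Sfrp5 (0.41), lost their call without any of 6 and 3 of the 8 arrays, respectively. Of 20 genes of the capsule and mesenchyme none passed (1 at an unadjusted p under 0.05).

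Of 42 enzymes and exporters that process foreign compounds and glutathione, 7 fell and 1 rose (19.05%, against 5.86% of all genes). With the offset allowed for 4 fell. Over the whole list 24 differences were above 0, and the median was 0.04 (−0.04 to −0.02 over the scalings). Mgst2, a microsomal glutathione transferase, was at 9.12, 8.71, 9.25 and 9.11 in controls and at 6.97, 7.34, 6.98 and 7.5 in KO. Adh7, an alcohol dehydrogenase that oxidises retinol, was at 10.38, 9.67, 10.37 and 9.75 in controls and at 7.25, 7.20, 7.96 and 7.87 in KO. Neither pair of groups came within 1 log2 unit of overlapping. Cyp2f2 was at 6.36, 6.03, 5.17 and 6.70 in controls, with control 3 lowest, and at 3.84 to 4.02 in KO. The drug exporters Abcb1b and Abcb1a fell by 2.25 and 1.01. The count that fell was 6 or 7 with an array left out, 7 or 8 over the scalings and 7 with Xist as a covariate. Among the 24 cytochromes P450, 4 fell (16.7%), of which Cyp11b1, Cyp11b2 and Cyp2f2 are named above.

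The 20 falls that followed the 10 largest (1.34 to 1.81) were led by Tmem35a, a chaperone of nicotinic receptors, and 15 passed with the offset allowed for. Tmem35a was at 11.28, 11.38, 11.04 and 11.06 in controls and at 9.20, 9.44, 9.30 and 9.57 in KO (adjusted p = 6.91e-06). Hao2, a peroxisomal hydroxyacid oxidase, was at 12.24, 12.11, 12.27 and 12.32 in controls and at 10.50, 10.67, 10.47 and 10.60 in KO. That is a 3.2-fold fall (SE 0.11 log2, adjusted p = 3.86e-07) in an abundant transcript. Fbp1, an enzyme of gluconeogenesis, fell by 1.67 and missed the offset test (adjusted p = 0.0527).

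Agtr1b, an angiotensin II receptor of the adrenal, was at 6.24, 6.73, 6.58 and 6.53 in controls and at 4.81, 4.68, 4.90 and 5.20 in KO (adjusted p = 1.77e-05). Ptger4, a receptor of prostaglandin E2, was at 8.75 to 9.29 in controls and at 7.12 to 7.63 in KO. Prkar2b, a regulatory subunit of the cAMP-dependent kinase, was at 12.12, 12.17, 12.10 and 12.53 in controls and at 11.04, 10.49, 10.84 and 10.42 in KO, a fall of 1.53. Other probe sets of Prkar2b fell by 1.5 and 1.47. The stress kinase Mapk13 fell 2.84-fold and the receptor phosphatase Ptprz1 by 1.54, where a dim probe set of the latter differed by 0.04.

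Gja1, which encodes the gap junction protein connexin 43, was at 12.98, 12.82, 12.85 and 12.82 in controls and at 11.79, 11.36, 11.38 and 11.34 in KO, a fall of 1.40 (SE 0.12, adjusted p = 3.32e-06). Of its other probe sets, 4 fell by 1.75 to 1.99 and a dim one differed by 0.02. The hormone gene Sct (secretin) fell by 1.36, the protease Cpb1 by 1.35, the cytolinker Eppk1 by 1.42 and Ms4a10 by 1.80. Mgat4c, a glycosyltransferase, was at 9.60 to 10.32 in controls and at 8.03 to 8.65 in KO (offset test adjusted p = 0.176).

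Of genes with a mean signal of at least 10, the largest rises were those of Gpr137b, its near-identical copy Gpr137b-ps, Csf1r, Galnt7, Oip5os1 and Hmga2. Signals of the 2 copies cannot be fully separated. Galnt7, a transferase of mucin-type O-linked glycosylation, was at 10.27, 10.04, 10.32 and 10.15 in controls and at 11.34, 11.10, 11.35 and 11.21 in KO, a rise of 1.06 (SE 0.10, adjusted p = 1.38e-05). Oip5os1, the long noncoding RNA Cyrano, which promotes destruction of a microRNA, rose by 0.88 and was at 10.55 to 10.71 in controls and at 11.46 to 11.6 in KO. Other probe sets of Oip5os1 differed by 0.59 and 0.19. The largest falls at this level were those of Abcb1b, Tmem35a, Hao2, Prkar2b, Gja1 and Rfk. Rfk, the riboflavin kinase, was at 12.05 to 12.78 in controls and at 11.14 to 11.25 in KO. The offset test was passed by 11 of these 12.

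Lists of matrix and growth factor genes held passing genes at shares of 6.82% to 13.9%, against 5.86% of all genes. Of 36 collagen chains (13.9%), 4 fell and 1 rose. Col4a3 and Col4a4, partner chains of basement membrane collagen, fell by 0.79 and 0.92. Averaged over its probe sets, Col4a3 did not pass (adjusted p = 0.0986). Among 44 genes of the FGF, IGF, EGF and PDGF pathways (6.82%), Fgf10 rose by 0.71, the receptor Fgfr4 fell by 0.99 and Etv4, a transcription factor induced by FGF, fell by 0.72. Etv4 was at 6.14, 5.94, 6.06 and 6.43 in controls and at 5.30, 5.37, 5.81 and 5.20 in KO. In the activin, TGF-beta and BMP list of 42 (9.52%), Acvr1c, Fst and Gdf3 rose, and Id2, a target of BMP signalling, fell by 0.41, a call lost without control 1, control 2 or KO 4. Id2 was at 12.14 to 12.39 in controls and at 11.81 to 11.97 in KO.

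The counts for chromatin and lysosome genes were not stable to leaving out an array. Of 47 chromatin regulators 5 rose (10.6%, against 5.86% of all genes), of which Arid3b and Hmga2 are described above, and the Polycomb genes Cbx2 and Cbx7 and the remodeller Chd7 rose by 0.44, 0.38 and 0.39. The count was 2 without control 1, control 2, KO 2 or KO 3, 3 without control 3, control 4 or KO 1, and 2 or 3 over the scalings. Of 31 lysosome genes 4 rose (12.9%), among them the cholesterol exporter Npc1 (0.69) and the protease Ctss of antigen-presenting cells (0.59). That count was 2 without control 1 or control 2 and with arrays centred on the dim genes.

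**Figure D4:**
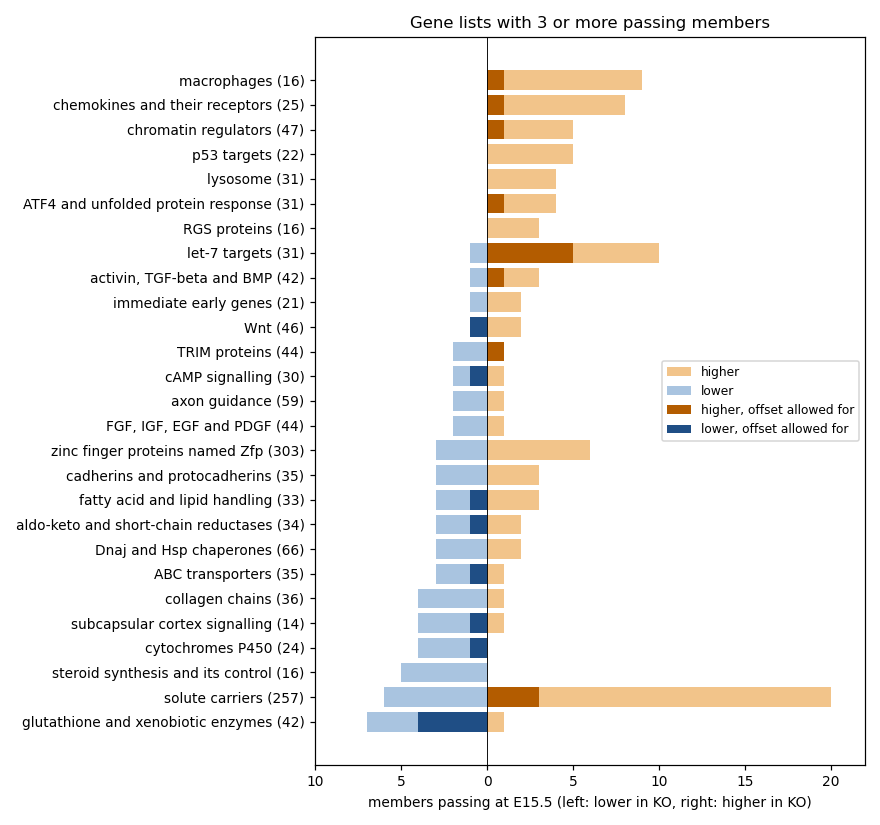
Number of genes (x axis) that rose (bars to the right) or fell (bars to the left) in KO glands at E15.5 in each gene list with at least 3 passing members, with darker bars for genes that also passed with the offset allowed for. The let-7 list holds the most rises with the offset allowed for, 5, and the glutathione and xenobiotic list the most falls, 4.

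In 17 of the 68 lists no gene passed. Among them were 20 genes of chromaffin cells, although all 20 had differences above 0, from 0.18 to 0.68, with a median of 0.31. Array means of that list were 9.83 to 10.49 in controls and 10.42 to 10.66 in KO. None passed of 79 respiratory chain subunits (4 at an unadjusted p under 0.05), 42 ribosomal proteins (0) or 37 proteasome subunits (1). Nor did any pass of 26 Notch genes (4), 44 Sox and Fox factors (8) or 17 tubulins (2). Of markers of neighbouring organs, none of 8 liver genes passed (0 at an unadjusted p under 0.05). Of these liver genes 7 had differences above 0, and the list median was 0.54. Their array mean varied among pools, from 6.03 to 9.40 in controls and from 6.43 to 9.25 in KO, and the ranges overlapped. Of the kidney list only 4 of 11 genes on the array could be tested, and 1, Cited1, passed. None of 5 gonad genes passed (3 at an unadjusted p under 0.05).

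The lists covered a minority of the response. Of the 800 passing genes 160, or 20%, were in at least 1 list, where 16.3% of the genes tested were, and 640 were in none. Of the 86 genes that passed with the offset allowed for, 20 were in a list. Probe sets with no single gene symbol behaved alike in frequency. Of 4047 above the filter, 179 passed (4.42%), 86 higher and 93 lower, against 4.92% of all probe sets.

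Of the passing genes, 280 had a further probe set above the filter. Of these 459 further probe sets, 392 had the same sign as the one kept, and 10 went the other way at an unadjusted p under 0.05.

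Nr6a1 lies beside Nr5a1 in the genome (gene order from RefSeq, GRCm38.p6). Of the 9 tested genes among the 5 on each side of Nr6a1, none passed. Psmb7, on the far side of Nr5a1, was at 10.32, 10.65, 10.94 and 11.52 in controls and at 10.42, 11.13, 12.43 and 10.75 in KO. Nr5a1 was at 10.67, 10.39, 10.72 and 11.68 in controls and at 11.02, 11.40, 12.38 and 10.92 in KO. In both genes control 4 was the highest control and KO 3 the highest KO pool, a pattern that Nr6a1 did not share. Olfml2a, the neighbour on the other side, had a difference of 0.30 (adjusted p = 0.221) with groups that did not overlap.

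The values at E16.5 came from other litters, and both stages were fitted together. Xist at E16.5 was at 11.16 to 12.76 in KO pools and at 10.73, 10.37, 4.8 and 4.6 in controls. Sex of the pool therefore moved with genotype at both stages. All 800 genes had the same sign at E16.5, and 644 (80.5%) passed there with that sign, where 1439 genes (10.5%) passed in all. Of genes not passing at E15.5, 77.7% had the same sign. By size at E15.5, the share that passed at E16.5 was 66.9% under 0.5, 83.9% from 0.5 to 1, 97.2% from 1 to 2 and 100% above 2. All 86 genes that passed with the offset allowed for passed at E16.5. Both stages share the choice of probe set, the filter and each gene's spread, so these shares are not rates of independent repeats. Without the E16.5 control that stood apart, 630 of the 800 passed there and 799 had the same sign, while the number passing at E15.5 was 1059.

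No gene passed the test of a difference between the KO effects at the 2 stages (limma, smallest adjusted p = 1.00), and 66 of the 800 had an unadjusted p under 0.05. The individual values are given side by side. Shh fell by 1.18 at E16.5. The difference in Hhip there was −0.48 (adjusted p = 0.0642) and in Ptch1 −0.08 (adjusted p = 0.643). Cyp11b1 fell by 1.58 at E16.5 and Cyp11b2 fell by 2.93. Of the macrophage genes 15 of 16 rose at E16.5 and of the let-7 targets 13 of 31. Cdkn1a had a difference of 1.00 (adjusted p = 0.0609), Hao2 fell by 1.99 and Lgals3 rose by 2.43.

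**Figure D5:**
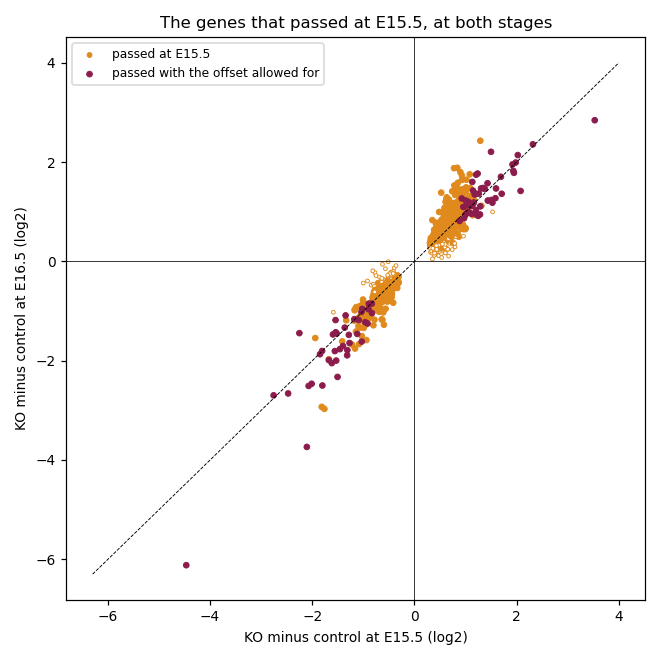
KO minus control difference in log2 signal at E15.5 (x axis) against that at E16.5 (y axis) for the 800 genes that passed at E15.5, filled where the gene also passed at E16.5 and open where it did not, with the line of equal change dashed. The 644 filled points and the 156 open points all have the same sign at both stages. Most open points lie between 1 and −1 at E15.5, but Mgat4c (−1.59) and Cdkn1a (1.53) are among them.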

How the data were processed

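The authors deposited log2 signals of 45101 probe sets on Affymetrix Mouse430_2 arrays. Per the submitters' processing notes RMA and limma were used, without versions in the sources used here. RMA compresses dim probe sets, which understates their changes. No further normalization was applied. Symbols came from the platform annotation; 34945 probe sets had 1 symbol, 932 several and 9160 none, apart from 64 control probe sets. A gene was tested if its brightest probe set lay above the 40th percentile on at least 4 arrays.

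Limma 3.58.1 (R 4.3.3, with the data.table package at 1.17.8) fitted 4 group means to all 16 arrays, with eBayes and Benjamini-Hochberg adjustment over all tested genes at a threshold of 0.05. The offset test used limma's treat. Every adjusted p of a gene is limma's and two-sided. The number of arrays limits precision: the median SE was 0.139. The fit was tested on simulated data.

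Named genes were ranks 11 to 30 by fold in each direction and the 6 largest changes each way with a mean of at least 10. Both sets were taken among genes that passed with groups that did not overlap. Up to 5 members of each list by size of change were taken where they passed, whether or not their groups overlapped. Dicer1 and Nr5a1 were always looked at, and neither passed. Other genes were chosen after their values were seen. Members and lists were chosen with earlier results of these data known. The 4 pools of a group come from separate litters, and KO and control pools of a stage from the same litters. Columns without a sample: 0.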

Additional observations from a re-analysis of the deposited data

Results flagged for a closer look

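Among 344 groups of 4 pools of named genes, 8 held a pool set apart from the other 3 by Dixon's ratio of gap to range. That is fewer than the about 1 in 20 that chance gives. The ratio is relative to the range, so a flagged pool can still lie close to the others in signal. In the controls, Fgfr4 was at 10.21 in replicate 4 (9.40 to 9.51 in the others) and Prkar2b at 12.53 in replicate 4 (12.10 to 12.17). Ptprz1 was at 9.08 in control replicate 3 (9.51 to 9.58) and Trim30d at 6.04 in the same pool (6.75 to 6.81). In KO replicate 1, Acadl was at 10.84 (10.65 to 10.66), Gja1 at 11.79 (11.34 to 11.38) and Hspa1b at 10.81 (10.57 to 10.61). Peg10 was at 7.11 in KO replicate 3 (6.55 to 6.62).

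Probe sets that name no single gene were outside the gene-level comparison, and 179 of them passed at E15.5.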

How the results depend on the processing

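All, higher, lower and listed genes that passed numbered 800, 503, 297 and 160. They were 1688, 1127, 561 and 266 without the filter on dim probe sets, 414, 244, 170 and 100 with a stricter filter, which tests fewer genes, and 86, 47, 39 and 20 with the offset allowed for. With arrayWeights they were 1350, 853, 497 and 261, and without replicate 1 of both groups 434, 280, 154 and 101. Higher genes were 276 with arrays centred on their 75th percentile and 303 with Xist as a covariate, and lower genes were 453 with arrays centred on the dim genes. Without the E16.5 control replicate 2 the counts were 1059, 671, 388 and 207. The causes were not tested. With 1 array left out the ranges were 588 to 666, 348 to 422, 202 to 258 and 115 to 140. The other alternatives kept all 4 counts within 1.5 times.

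Whether replicate numbers mark pools of the same litter stayed unknown, and the values did not settle it. Correlations of same-numbered deviations were 0.25, 0.39, −0.03 and −0.39, and 2 of 4 controls correlated best with their own number. With the number as a block, 710 genes passed (436 higher, 274 lower), 153 of them listed. The split into higher and lower genes turned from 503 and 297 to 276 and 372 or 372 and 453 under the centrings above. Medians near 0 changed sign in some lists, such as the subcapsular one (0.03, and −0.05 with quantile normalization). Of 172 genes looked at, none that passed reversed its direction under the alternatives run, and 38 of the 163 that passed lost their call without at least 1 of the 8 arrays. Dim probe sets near the background limit what can be seen of small changes.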
